A study of Homo sapiens with 4 samples.

Results

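The 38 HOX genes considered here lie in 4 clusters, HOXA on chromosome 7, HOXB on chromosome 17, HOXC on chromosome 12 and HOXD on chromosome 2, and were taken with every accessible site inside fixed windows around them. The windows were chr7:27120000-27260000, chr17:46600000-46820000, chr12:54320000-54460000 and chr2:176940000-177060000 in genome build hg19, 620 kb in all, and a peak belonged to a cluster when its midpoint fell inside. They held 90 of the 234888 peaks of the series, which merged into 41 of 103230 regions. The data are ATAC-seq peak lists, in which the Tn5 transposase marks open DNA, from ME-1, an established human acute myeloid leukaemia cell line with inv(16). The fusion of CBFB with MYH11 that results, whose protein is CBFβ-SMMHC, was present in the cells of both groups. Cells of 1 group received DMSO, the solvent, and cells of the other AI-10-49 at 1 µM, which keeps CBFβ-SMMHC from binding RUNX1, both for 6 h. Each group had 2 libraries, described by the submitters as independent experiments, of 1 cell line.

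HOX genes encode homeodomain transcription factors that give cells their position along the body axis, and their order in a cluster follows the order in which they act from head to tail. Genes at the 3′ end of a cluster are called anterior and those at the 5′ end posterior, and genes of the same number in different clusters are paralogues. In blood, HOXA and HOXB genes are active in stem and progenitor cells and are shut down as cells mature, and HOXA9 with its cofactor MEIS1 drives several acute leukaemias. Leukaemias with a core binding factor fusion, such as inv(16), are as a class known for low HOX expression. These data measure open chromatin and not expression.

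Gene starts were approximate positions from general knowledge, since no annotation of hg19 was used here. Their spacing within each cluster lay within 0.31 kb of RefSeq (GRCh38.p14) for 33 of 38 genes. HOXB3, HOXC4, HOXC5, HOXC6 and HOXD3, which have several starts, deviated by more, and distances to them hold for the start used. Distances below are therefore rounded to 0.1 kb.

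Promoter sequences are shown for 5 HOXA genes, because the HOXA cluster held most of the open sites near starts. HOXA4 had a region in all 4 libraries, HOXA7, HOXA10 and HOXA11 each had peaks within 1 kb in 2 libraries, and HOXA9, the member best known from leukaemia, had none within 1 kb. Each sequence is from RefSeq in build GRCh38.p14, minus strand, from 250 bases before to 50 after the start, written 5′ to 3′ with every CG in capitals. The positions are chr7:27130708-27131007 for HOXA4, chr7:27156626-27156925 for HOXA7, chr7:27165488-27165787 for HOXA9, chr7:27174271-27174570 for HOXA10 and chr7:27185183-27185482 for HOXA11.
HOXA4: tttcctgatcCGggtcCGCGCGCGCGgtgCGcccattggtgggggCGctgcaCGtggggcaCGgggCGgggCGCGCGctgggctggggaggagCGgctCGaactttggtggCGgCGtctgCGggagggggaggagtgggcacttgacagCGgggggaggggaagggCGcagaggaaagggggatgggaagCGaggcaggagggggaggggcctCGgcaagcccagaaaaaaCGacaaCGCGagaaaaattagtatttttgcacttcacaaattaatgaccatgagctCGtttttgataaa
HOXA7: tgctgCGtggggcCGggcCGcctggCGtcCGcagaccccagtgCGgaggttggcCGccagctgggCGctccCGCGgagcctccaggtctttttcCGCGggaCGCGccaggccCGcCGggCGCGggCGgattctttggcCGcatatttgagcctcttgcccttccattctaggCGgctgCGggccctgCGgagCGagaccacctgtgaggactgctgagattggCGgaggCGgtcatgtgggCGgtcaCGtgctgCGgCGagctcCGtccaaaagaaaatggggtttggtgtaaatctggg
HOXA10: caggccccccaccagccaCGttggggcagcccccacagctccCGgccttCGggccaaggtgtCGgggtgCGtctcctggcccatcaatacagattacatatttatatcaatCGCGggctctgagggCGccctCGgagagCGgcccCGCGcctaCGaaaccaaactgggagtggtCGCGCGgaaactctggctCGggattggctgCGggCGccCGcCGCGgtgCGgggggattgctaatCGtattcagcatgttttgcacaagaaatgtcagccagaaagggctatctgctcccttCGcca
HOXA11: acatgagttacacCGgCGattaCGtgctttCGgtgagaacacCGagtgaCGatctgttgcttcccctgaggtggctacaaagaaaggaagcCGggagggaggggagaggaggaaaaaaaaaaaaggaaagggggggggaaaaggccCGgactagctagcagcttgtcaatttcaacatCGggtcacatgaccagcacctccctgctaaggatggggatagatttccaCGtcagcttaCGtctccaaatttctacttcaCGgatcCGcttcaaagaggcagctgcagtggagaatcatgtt
HOXA9: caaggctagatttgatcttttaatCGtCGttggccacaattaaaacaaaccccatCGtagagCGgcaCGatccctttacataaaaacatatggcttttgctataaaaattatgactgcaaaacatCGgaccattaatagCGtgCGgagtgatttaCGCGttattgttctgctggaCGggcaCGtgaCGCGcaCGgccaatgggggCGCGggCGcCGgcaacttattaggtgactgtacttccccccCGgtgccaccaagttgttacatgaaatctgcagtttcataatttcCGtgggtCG
The number of CG was 27 for HOXA4, 31 for HOXA7, 25 for HOXA10, 13 for HOXA11 and 22 for HOXA9, against a median of 14 over 34943 RefSeq promoters of the same length. Promoters matching the start used were found for 17 HOX genes, with a median of 24 and a range of 0 to 44. The 4 with a region within 1 kb of the start had a median of 26 and the 13 without had 23, so CG content differed little between them. HOXA13, with 44, and HOXD1, with 36, had more CG than HOXA4 and had no region within 1 kb.

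A few short motifs were looked for in these 17 promoters on both strands, each counted on its own whether or not matches of different motifs overlapped. The RUNX core TGTGGT was found in 1 of 17 (HOXD10), or 5.88%, against 13.1% of all promoters. CCAAT was found in 13 of 17, or 76.5%, against 34.6%. TATAAA was found in 3 of 17 (HOXA9, HOXA10 and HOXD13), or 17.6%, against 11.6%. A match is only a match of letters in this window.

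The myeloid label of ME-1 was checked at marker genes, and each myeloid gene looked at had an open site. Within 2 kb of the start, SPI1, the master regulator of myeloid cells, had a region whose summit held 11 and 19 reads under DMSO (replicate 1, then replicate 2, as throughout) against 18 and 26 under AI-10-49. MPO, a granule enzyme, and CD33, a myeloid surface protein, also had a region in all 4 libraries, and CEBPA, a myeloid factor, had one in 3. Of the genes of other blood cells, PAX5 (B cells) and GATA1 (red cells) had no region, while CD3E (T cells) had a peak of 2 reads in DMSO replicate 2. The lists held 67388 and 65132 peaks under DMSO against 48930 and 53438 under AI-10-49. A peak needed at least 2 reads to be listed with DMSO and 3 with AI-10-49, and the background was 0.0613 and 0.0600 against 0.0965 and 0.1076 reads per base.

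The clusters differed widely in open chromatin, with HOXA the most open, HOXB next, and HOXC and HOXD nearly empty. HOXA held 11 and 11 peaks under DMSO against 10 and 14 under AI-10-49. HOXB held 10 and 6 under DMSO against 8 and 9 under AI-10-49. HOXC held 1 and 3 under DMSO against 1 and 1 under AI-10-49, and HOXD held 2 and 1 under DMSO against 1 and 1 under AI-10-49. In every library the order was HOXA, HOXB, then the other pair, and no value of HOXC or HOXD reached the lowest of HOXB.

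**Figure D1:**
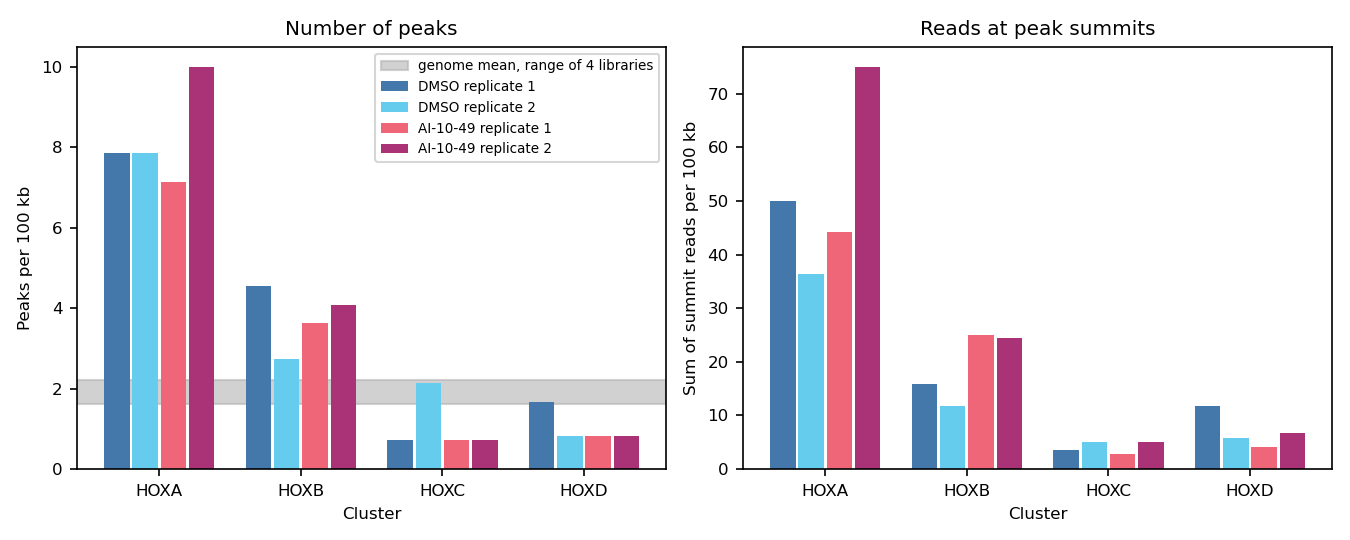
Peaks per 100 kb (left) and the sum of summit reads per 100 kb (right) in each HOX cluster, 1 bar per library. HOXA bars stand at 7.14 to 10 peaks per 100 kb, above the grey band of the genome mean (1.61 to 2.22), and HOXC and HOXD bars lie in or below the band.

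Per length, HOXA held 7.86 and 7.86 peaks per 100 kb with DMSO and 7.14 and 10 with AI-10-49. The genome mean was 2.22 and 2.15 under DMSO against 1.61 and 1.76 under AI-10-49, so HOXA stood at 3.54 to 5.68 times the mean. HOXB stood at 1.27 to 2.32 times, HOXC at 0.322 to 0.998 times and HOXD at 0.388 to 0.750 times. The stretches of equal length on either side of HOXA held 1 to 2 peaks per library on the low coordinate side and 2 to 3 on the high side, against 10 to 14 in the cluster. Next to HOXB they held 3.30 and 4.20 peaks per 100 kb on average over the 4 libraries, within the range of the cluster (2.73 to 4.55). HOXC had 0.179 and 1.79 at its sides, and HOXD 1.25 and 0.833. No test was made between clusters, as each is 1 locus.

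Reads followed the same order. The summit reads of all HOXA peaks summed to 70 and 51 under DMSO against 62 and 105 under AI-10-49. HOXB sums were 35 and 26 under DMSO against 55 and 54 under AI-10-49. HOXC sums were 5, 7, 4 and 7 and HOXD sums 14, 7, 5 and 8 in the same order of libraries. In these reads, which are not scaled for the library, HOXB was the only cluster of the 4 whose groups did not overlap. The site between HOXB4 and HOXB5 alone gave 8 and 6 of the HOXB reads against 17 and 17. Divided by the library's median summit reads at regions of all 4 libraries, the HOXB sums were 4.38 and 3.71 against 6.11 and 5.40. On that scale the HOXD groups did not overlap either, with AI-10-49 lower. The background was higher in both AI-10-49 libraries, and sums over the background were not compared. The highest peak of each list in a HOX cluster had 12 and 8 reads under DMSO against 17 and 17 under AI-10-49.

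HOX sites were small. The median HOX peak was 93 and 84 bp wide with DMSO and 97 and 93 bp with AI-10-49, against 107, 102, 117 and 121 bp over the whole lists, narrower in 4 of 4 libraries. Ranked by −log10 p-value within its own list, the median HOX peak stood at percentile 51.4 and 36.6 under DMSO against 35.0 and 34.3 under AI-10-49. It lay below the middle of the list in 3 of 4 libraries.

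The share of HOX regions found in all libraries could not be told from that of the genome at this number of regions. Of the 41 regions, 7 (17.1%, exact 95% interval 7.15 to 32.1%) held a peak in all 4 libraries, against 28.1% of all regions. The interval holds the share of the genome. Like the intervals of shares below, it treats regions as independent, although they are neighbours within 4 loci, and it is not a test of enrichment. A further 8 were listed in 3 libraries, 10 in 2 and 16 in 1 library, or 39.0% for the last, near the 43.9% of all regions. By cluster, 14 of 20 HOXA regions and 9 of 16 HOXB regions were listed in 2 or more libraries, against 1 of 3 in HOXC and 1 of 2 in HOXD. Regions of all 4 libraries numbered 3 in HOXA, 2 in HOXB, 1 in HOXC and 1 in HOXD.

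**Figure D2:**
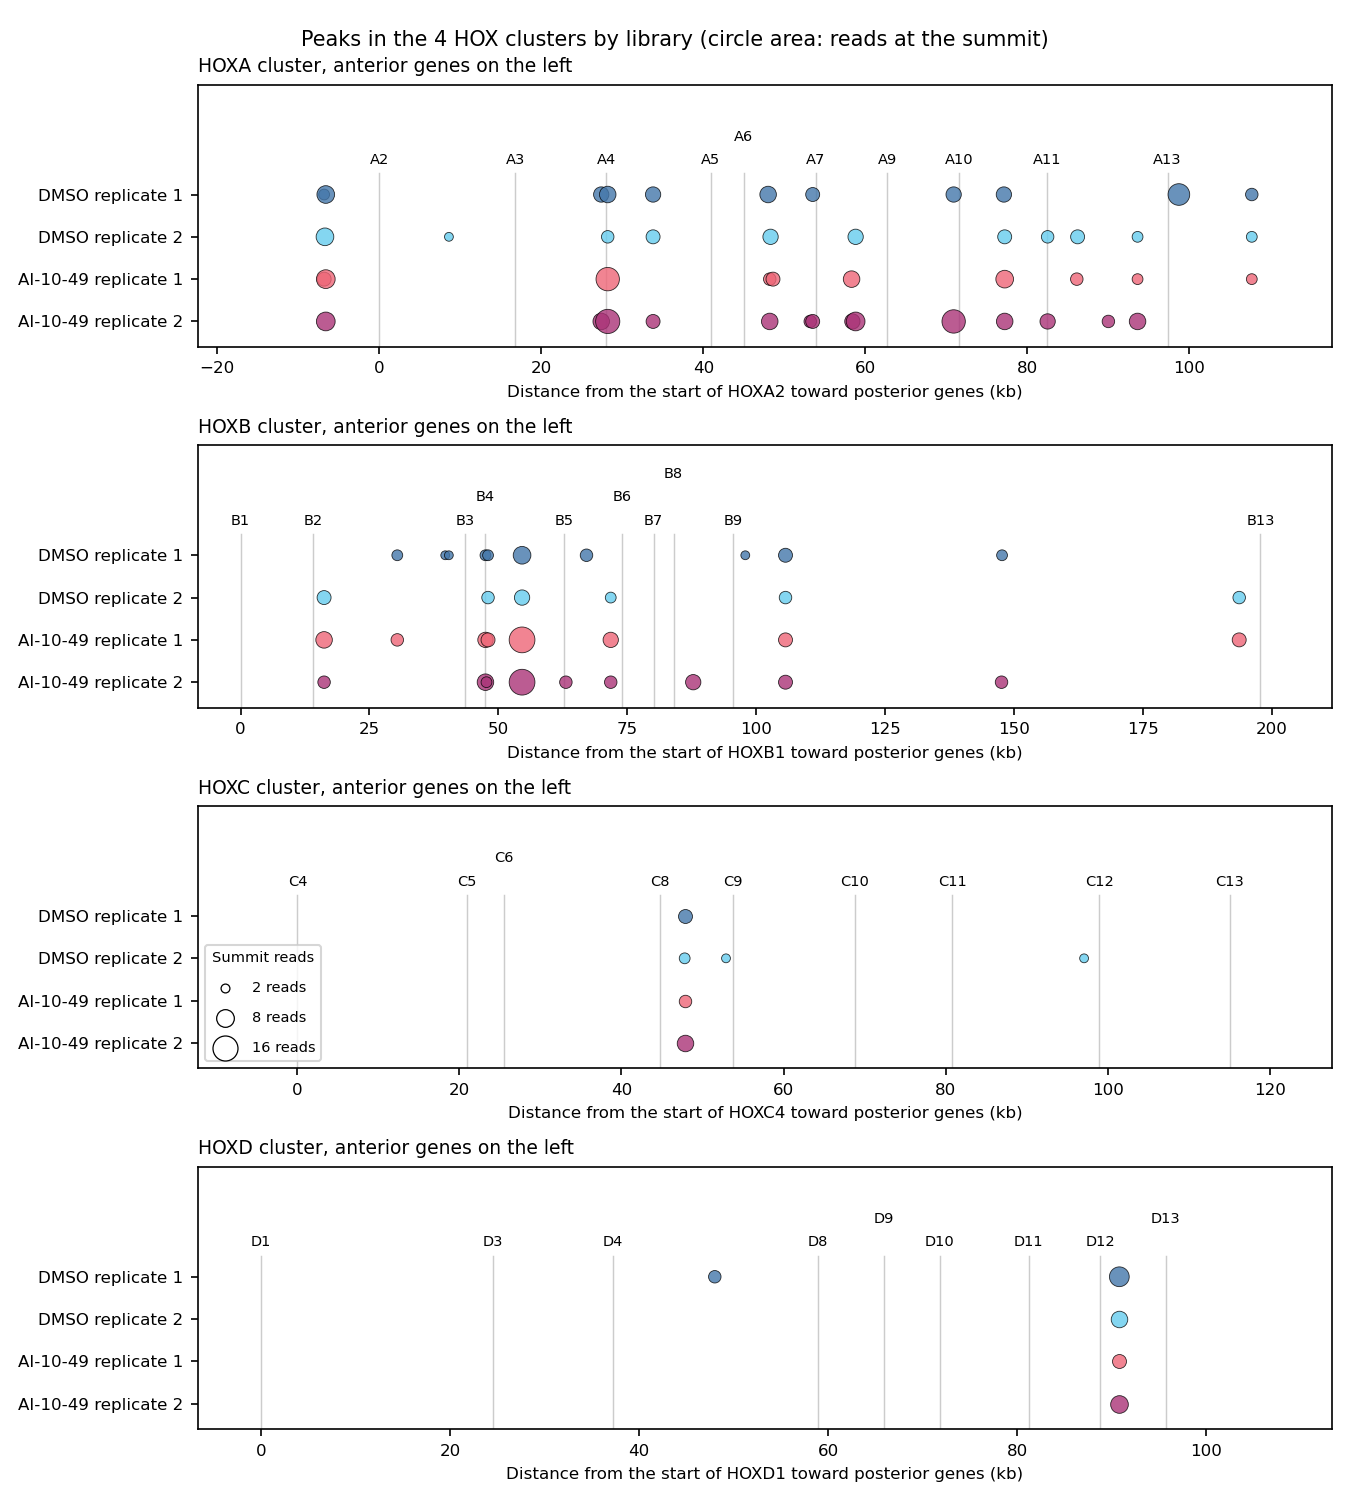
Peaks of each library (rows) along the 4 clusters, by distance in kb from the start of the most anterior gene considered, with circle area for summit reads and grey lines for gene starts. Peaks crowd between HOXA4 and HOXA13 and around HOXB4, while the stretch from HOXC4 to HOXC8 and that from HOXD1 to HOXD4 hold none.

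Along the clusters, open sites were not spread evenly from anterior to posterior genes. With each window divided into 3 equal lengths, HOXA held 2 regions in the anterior, 11 in the middle and 7 in the posterior length. HOXB held 9, 5 and 2 in the same order. In HOXC these numbers were 0, 2 and 1, and in HOXD 0, 1 and 1. Over all 4 clusters they were 11, 19 and 11. HOXB had most regions in its anterior length, HOXA in its middle, and neither region of HOXD was in its anterior length. Equal lengths do not hold like genes, however. The anterior length held the starts used for HOXA2 and HOXA3 in HOXA, but those for HOXB1 to HOXB5 in HOXB. The regions around HOXB4 thus counted as anterior and those at HOXA4 as middle, so these counts do not compare paralogues.

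The longest empty stretches covered whole runs of genes in HOXC and HOXD. In HOXC no library had a peak over 60 kb, chr12:54399955-54459999, which holds the starts used for HOXC4, HOXC5, HOXC6 and HOXC8. In HOXD the stretch was 54.6 kb, chr2:177005427-177059999, with HOXD1, HOXD3 and HOXD4. The stretches in HOXC and HOXD ended at the edge of the window and not at a peak, so their full lengths were not measured. In HOXA the longest was 18.6 kb, chr7:27151075-27169716, with HOXA3. In HOXB it was 46.0 kb, chr17:46756005-46801990, between HOXB9 and HOXB13, where no HOX start lies. An empty stretch means that no peak passed the authors' threshold at this depth, not that the chromatin was closed.

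Most HOX starts had no listed peak within 1 kb. The same share over all gene starts was not counted. The counts here, by cluster and by paralogue group therefore cannot be called low or typical. A region lay within 1 kb of the start for 7 of 38 genes: HOXA4, HOXA7, HOXA10, HOXA11, HOXB4, HOXB5 and HOXC9. By cluster this was 4 of 10 in HOXA, 2 of 10 in HOXB, 1 of 9 in HOXC and 0 of 9 in HOXD. By paralogue group it was 0 of 7 anterior genes (groups 1 to 3), 4 of 15 central genes (groups 4 to 8) and 3 of 16 posterior genes (groups 9 to 13). Peaks in all 4 libraries were found at 2 starts, HOXA4 and HOXB4, which are paralogues, while HOXC4 and HOXD4, the other members of group 4, had no region within 10 kb of the start used.

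The remaining starts with a peak were listed in fewer libraries. HOXA7, a central gene, had peaks of 5 reads at chr7:27195825-27195915 in DMSO replicate 1 and in AI-10-49 replicate 2, and the latter had a further peak of 4 reads at chr7:27195596-27195682. HOXA10, a regulator of progenitor growth, had 6 reads in DMSO replicate 1 and 14 in AI-10-49 replicate 2, at chr7:27213246-27213325, 0.7 kb inside the gene, and no peak in the other libraries. HOXA11, a limb and uterus gene, had 4 reads in DMSO replicate 2 and 6 in AI-10-49 replicate 2. Each of these 3 starts thus had a peak in 1 library of each group. HOXB5 had 4 reads in AI-10-49 replicate 2 alone, and HOXC9 had 2 in DMSO replicate 2 alone. With 2 kb in place of 1 kb, the number of starts with a region was 10, HOXA13, HOXC12 and HOXD12 being added.

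The mean number of HOX peaks was equal between treatments in the deposited lists. There were 24 and 21 under DMSO against 20 and 25 under AI-10-49, or 22.5 ± 2.12 and 22.5 ± 3.54 (SD, n = 2 each, exact two-sided permutation p = 1.000). The difference in the length of the whole lists, AI-10-49 minus DMSO, was -22.8% (exact permutation p = 0.333, the smallest that 2 against 2 libraries allow, which holds for every test of groups here). The HOX share of the list was 0.0356% and 0.0322% under DMSO against 0.0409% and 0.0468% under AI-10-49, and these groups did not overlap. The direction in HOX peaks depended on which peaks were counted: AI-10-49 lists had 4.5 more HOX peaks on average with lists of equal length, 5.0 more with at least 5 reads, and 5.0 fewer with at least 60 times the background.

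Sites particular to a treatment were rare. Both DMSO libraries shared 10 HOX regions, of which 0 lacked a peak in both AI-10-49 libraries (DMSO-only), against 11.8% of the regions that both DMSO libraries shared genome-wide. The exact 95% interval of 0 of 10 reaches 30.8%, so a share like that of the genome was not distinguishable. Of the 13 regions in both AI-10-49 libraries, 1 (7.69%, interval 0.195 to 36.0%) was AI-10-49-only, against 5.36% of such regions genome-wide. This region, chr7:27200692-27200840, lay between the starts of HOXA7 and HOXA9, 4.3 kb from that of HOXA9 and beyond it toward its 3′ end. It had 7 and 6 reads in the AI-10-49 libraries, or 72.5 and 55.8 times the background, at percentile 39.2 and 11.6 of the list. Its neighbour chr7:27201173-27201276 had 6 reads in DMSO replicate 2 and 9 in AI-10-49 replicate 2. With a library left out, its group needed a peak in the other library alone. A region of the opposite group only then needed to lack a peak in that library alone. DMSO-only regions then numbered 3 and 7 without DMSO replicates 1 and 2, and 2 and 1 without AI-10-49 replicates 1 and 2. AI-10-49-only regions numbered 2, 5, 6 and 2 in the same order, and every one of these counts was above that with all libraries. The share over all regions under these eased criteria is not given here, so the counts cannot be called high or low.

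To set heights side by side, the reads at each summit were divided by the library's median at the 29040 regions of all 4 libraries with whole reads recovered, which was 8 and 7 reads under DMSO against 9 and 10 under AI-10-49. On this scale of relative height, 2 of the 7 HOX regions of all 4 libraries were higher in both AI-10-49 libraries than in both DMSO libraries, against 19.7% of all such regions. Another 2 of 7 were lower in both, against 18.7%. With so few regions these counts are near the background. A higher value can come from more cells with an open site or from a more open site in each cell, and these cannot be told apart here.

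The region at the HOXA4 start showed the largest difference. HOXA4 is a central HOX gene, and its region, chr7:27170471-27170687, lay 0.2 kb before the start, close to or within the stretch covered by the promoter sequence shown above. It had 7 and 4 reads under DMSO against 14 and 15 under AI-10-49. Both treated libraries were thus above both controls, and the replicates with DMSO differed more than those with AI-10-49. Exact 95% Poisson intervals, which cover counting error only, were 2.81 to 14.4 and 1.09 to 10.2 reads with DMSO and 7.65 to 23.5 and 8.40 to 24.7 with AI-10-49, and these overlap.

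The relative height at HOXA4 was 0.72 ± 0.21 with DMSO and 1.53 ± 0.04 with AI-10-49 (SD, n = 2 each), 2.16-fold higher on the mean of log2 values, a difference of 1.11 in log2. This was larger than at 99.1% of regions of all 4 libraries, and the exact permutation p was 0.333. In multiples of the background the values were 114.2 and 66.7 under DMSO against 145.1 and 139.4 under AI-10-49, still apart, where 5.20% of all such regions were higher in both AI-10-49 libraries. Leaving out each library in turn gave a log2 difference of 0.89 to 1.42. The region was no longer shared by all 4 libraries when peaks had to overlap by 50% of each other, or when at least 5 reads were asked for. A second region 0.6 kb inside the gene, chr7:27169717-27169851, had 6 reads in DMSO replicate 1 and 7 in AI-10-49 replicate 2, and no peak in the other libraries.

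Upstream of HOXA4, chr7:27176152-27176293, 5.8 kb from the start, did not show this pattern. It had 6 and 5 reads with DMSO, no peak in AI-10-49 replicate 1 and 5 reads in AI-10-49 replicate 2. The difference at the HOXA4 start was therefore not seen at the next region.

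The strongest HOXB site, and the highest HOX site of the treated libraries, lay between HOXB4 and HOXB5. HOXB4 is known for its use in expanding blood stem cells. The region chr17:46662736-46663022 was 7.2 kb before the HOXB4 start and had 8 and 6 reads under DMSO against 17 and 17 under AI-10-49. Both treated libraries were above both controls. Poisson intervals were 3.45 to 15.8 and 2.20 to 13.1 reads with DMSO and 9.90 to 27.2 in each AI-10-49 library.

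Its relative height was 0.93 ± 0.10 with DMSO and 1.79 ± 0.13 with AI-10-49 (SD, n = 2 each), 1.94-fold higher and a log2 difference of 0.95, larger than at 97.9% of regions of all 4 libraries (exact permutation p = 0.333). In multiples of the background it had 130.5 and 100.0 under DMSO against 176.2 and 158.0 under AI-10-49. Leaving out each library gave 0.93 to 1.20 in log2. The percentile in the list was 74.8 and 66.1 under DMSO against 91.9 and 90.7 under AI-10-49.

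The HOXB4 start itself carried 3 small regions within 1 kb, none of them listed in all 4 libraries. The nearest, chr17:46655763-46655870, 0.1 kb before the start, had 3 reads in DMSO replicate 1, no peak in DMSO replicate 2, and 6 and 7 reads with AI-10-49. At chr17:46656250-46656348, 0.6 kb before it, the reads were 3 and 4 with DMSO, 5 in AI-10-49 replicate 1, and no peak in AI-10-49 replicate 2. The highest peak within 1 kb had 3 and 4 reads under DMSO against 6 and 7 under AI-10-49, so the treated libraries were above the controls here in reads, which are not scaled for the library.

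**Figure D3:**
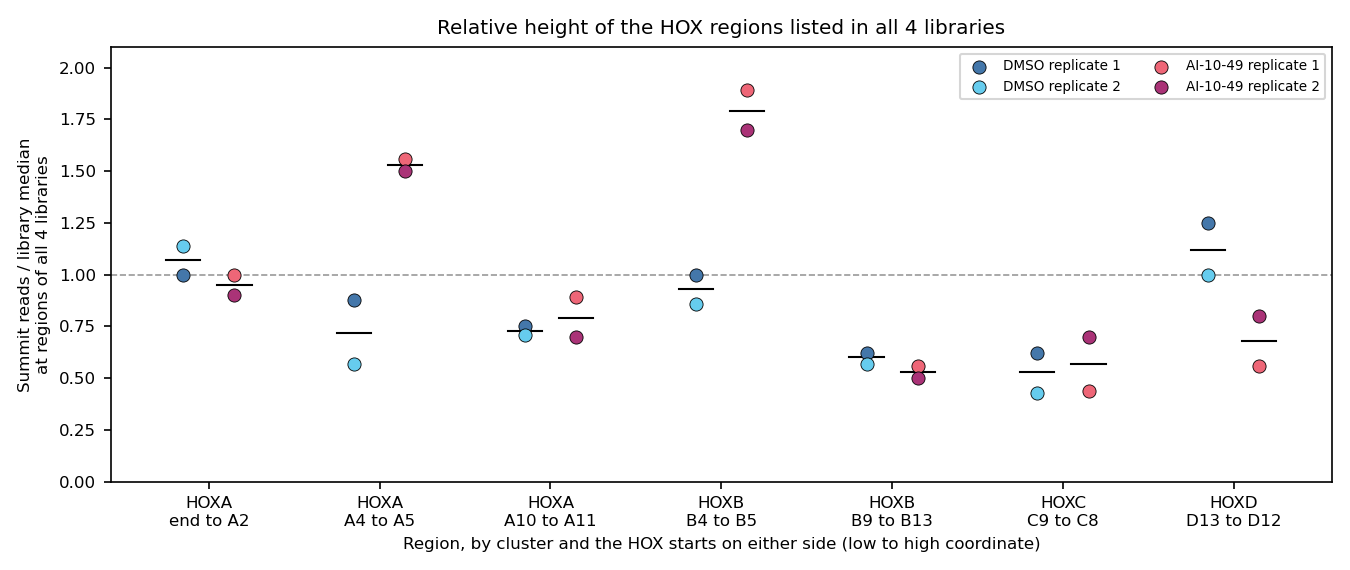
Relative height (summit reads over the library's median at regions of all 4 libraries) of the 7 HOX regions of all 4 libraries, 1 point per library, with bars for group means. At the HOXA4 start and between HOXB4 and HOXB5 both AI-10-49 points lie above both DMSO points, and between HOXD13 and HOXD12 and between HOXB9 and HOXB13 they lie below.

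In the HOXD cluster the region of all 4 libraries stood lower in relative height with AI-10-49. It lay at chr2:176962429-176962533, between HOXD13 and HOXD12, posterior genes known from limb development, and 2.0 kb before the HOXD12 start. It had 10 and 7 reads under DMSO against 5 and 8 under AI-10-49. In reads the groups overlapped, and in relative height they did not, with 1.25 and 1.00 against 0.56 and 0.80. The mean was 1.12 ± 0.18 with DMSO and 0.68 ± 0.17 with AI-10-49 (SD, n = 2 each), a log2 difference of -0.75 (exact permutation p = 0.333), lower than at all but 5.5% of regions of all 4 libraries. Without AI-10-49 replicate 1 it was -0.43, and in multiples of the background -1.15.

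The other regions of all 4 libraries differed little in relative height. Between HOXB9 and HOXB13, chr17:46713956-46714083 had 5 and 4 reads under DMSO against 5 and 5 under AI-10-49, and relative heights of 0.62 and 0.57 against 0.56 and 0.50 on the scaled values, which do not overlap although the reads do. Anterior to HOXA2, a hindbrain gene, chr7:27135526-27135820 was 6.7 kb from its start and had 8 and 8 reads under DMSO against 9 and 9 under AI-10-49. Its lowest percentile in any list was 61.4, next among the HOX regions to the 66.1 of the site between HOXB4 and HOXB5. Its relative height was 1.07 ± 0.10 with DMSO and 0.95 ± 0.07 with AI-10-49 (SD, n = 2 each), and the groups met at 1.00.

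Between HOXA10 and HOXA11, chr7:27219487-27219634 had 6 and 5 reads under DMSO against 8 and 7 under AI-10-49. Relative heights were 0.75 and 0.71 against 0.89 and 0.70, which overlap. In HOXC, chr12:54399853-54399954, 3.0 kb before HOXC8, had 5 and 3 reads under DMSO against 4 and 7 under AI-10-49. These groups overlapped too, with relative heights of 0.62 and 0.43 against 0.44 and 0.70.

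Over the 7 regions the median log2 difference in relative height was 0.11, against 0.00 over all regions of 4 libraries. In multiples of the background, 2 of 7 were higher in both AI-10-49 libraries and 4 of 7 lower, against 5.20% and 47.9% of all such regions. The 2 higher ones were those at HOXA4 and between HOXB4 and HOXB5, on both scales. The 4 lower ones in multiples of the background were between HOXD13 and HOXD12, between HOXB9 and HOXB13, anterior to HOXA2, and between HOXA10 and HOXA11. Anterior to HOXA2 the values were 130.5 and 133.3 under DMSO against 93.3 and 83.6 under AI-10-49. Between HOXA10 and HOXA11 they were 97.9 and 83.3 against 82.9 and 65.1.

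Some of the strongest HOX peaks were seen in 1 library only. Just before HOXA13, a posterior gene of limb and genital development, chr7:27241091-27241176 had 12 reads in DMSO replicate 1, percentile 90.8 of its list, and no peak in the other 3 libraries. Between HOXA6 and HOXA7, 3 separate small regions were listed within 1 kb of each other. There chr7:27190306-27190411 had 7 reads in DMSO replicate 1, and chr7:27190993-27191059 had 5 in AI-10-49 replicate 1. Between them, chr7:27190600-27190698 had 6 reads in DMSO replicate 2, 4 in AI-10-49 replicate 1 and 7 in AI-10-49 replicate 2. All 4 libraries thus had a peak in this stretch, but no region joined them.

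The other HOXA regions toward the posterior end were weak and partly shared. At chr7:27235943-27236032, 3.7 kb inside from the HOXA13 start, the reads were 3 in DMSO replicate 2 and 3 and 7 with AI-10-49. At chr7:27250055-27250175, 10.4 kb before that start, they were 4 and 3 with DMSO and 3 in AI-10-49 replicate 1. At chr7:27228472-27228623, beyond HOXA11, DMSO replicate 2 had 5 and AI-10-49 replicate 1 had 4. None of these separated the treatments. Near the anterior end chr7:27150999-27151074, between HOXA2 and HOXA3, had 2 reads in DMSO replicate 2 alone. Between HOXA11 and HOXA13, chr7:27232373-27232470 had 4 reads in AI-10-49 replicate 2 alone.

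In HOXB, the anterior regions also varied between replicates. Before HOXB2, a hindbrain gene, chr17:46624412-46624619 had 5 reads in DMSO replicate 2 and 7 and 4 with AI-10-49, without a peak in DMSO replicate 1. Near HOXB6, chr17:46680063-46680167 had 3 reads in DMSO replicate 2 and 6 and 4 with AI-10-49. Both were listed in both treated libraries and in 1 control. In the long interval between HOXB9 and HOXB13, a prostate and tail gene, chr17:46755846-46756004 had 3 reads in DMSO replicate 1 and 4 in AI-10-49 replicate 2. In the same interval, 4.1 kb from the HOXB13 start, chr17:46801991-46802095 had 4 in DMSO replicate 2 and 5 in AI-10-49 replicate 1. At chr17:46638631-46638750, far inside HOXB3, DMSO replicate 1 had 3 and AI-10-49 replicate 1 had 4.

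Regions of 1 library in HOXB held 2 to 6 reads. The highest, chr17:46696062-46696203, 3.8 kb before HOXB8, had 6 in AI-10-49 replicate 2. The 4 regions of DMSO replicate 1 alone had 2 to 4 reads. In HOXC and HOXD, the regions of 1 library were chr12:54350567-54350695 and chr12:54394736-54394806, each with 2 reads in DMSO replicate 2, and chr2:177005266-177005426 with 4 in DMSO replicate 1.

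HOX proteins act with cofactors and are themselves set by chromatin regulators, and most of the genes listed here had an open site within 5 kb of the start. HOX starts were scored at 1 kb, and the share of all genes with a region within 5 kb was not counted. These counts are therefore not a contrast with the HOX starts. The list held the cofactors MEIS1, MEIS2, PBX2 and PBX3 and the regulators KMT2A, MEN1, DOT1L, EZH2, CDX1, CDX2 and CDX4. A region lay within 5 kb of the start for 9 of 11, and a region of all 4 libraries for 8, with CDX2 and CDX4, gut and embryo factors, having none. Of the 12 regions of all 4 libraries near these genes, 5 were higher and 2 lower in relative height in both AI-10-49 libraries, and 5 overlapped, against 19.7% higher and 18.7% lower of all such regions. Their median log2 difference was 0.28. In multiples of the background 0 were higher and 5 lower in both, against 5.20% and 47.9% of all such regions.

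MEIS1, the partner of HOXA9, had a strong region 0.3 kb before its start, chr2:66662092-66662363, with 19 and 17 reads under DMSO against 12 and 17 under AI-10-49. Relative heights were 2.38 and 2.43 against 1.33 and 1.70, a log2 difference of -0.67. A further MEIS1 region at 1.8 kb, with 8 and 6 against 10 and 10 reads, overlapped in relative height. PBX2, whose protein pairs with HOX factors, had 8 and 11 reads under DMSO against 17 and 24 under AI-10-49 at its start, a log2 difference of 0.76. PBX3 had 5 and 5 against 5 and 7 reads and overlapped. MEIS2 had 5 small regions, none of them in more than 2 libraries.

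KMT2A and MEN1 encode partners that keep HOX genes active. The region 0.3 kb before KMT2A had 11 and 7 reads under DMSO against 17 and 19 under AI-10-49, a log2 difference of 0.69, while that at 1.0 kb had 12 and 10 against 10 and 12 and a difference of -0.34. Inside the gene, at 2.0 kb, the reads were 7 and 7 against 11 and 12, a difference of 0.37 in relative height, while in multiples of the background both AI-10-49 libraries were below both DMSO libraries. MEN1 had 8 and 7 against 17 and 14, a difference of 0.70. EZH2, the enzyme of the repressive Polycomb complex, had 9 and 6 against 13 and 12 reads, a difference of 0.42. At each of these regions the groups did not overlap in relative height. In multiples of the background they overlapped at PBX2, at KMT2A 0.3 kb before the start, at MEN1 and at EZH2, and both AI-10-49 libraries were lower at MEIS1 0.3 kb and KMT2A 1.0 kb before the start. DOT1L, a histone methyltransferase needed for HOXA expression in some leukaemias, had regions 4.4 and 5.0 kb inside the gene that overlapped, with differences of 0.43 and 0.05. CDX1 had 6 and 4 against 4 and 9 reads at 5.0 kb before its start and overlapped too.

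**Figure D4:**
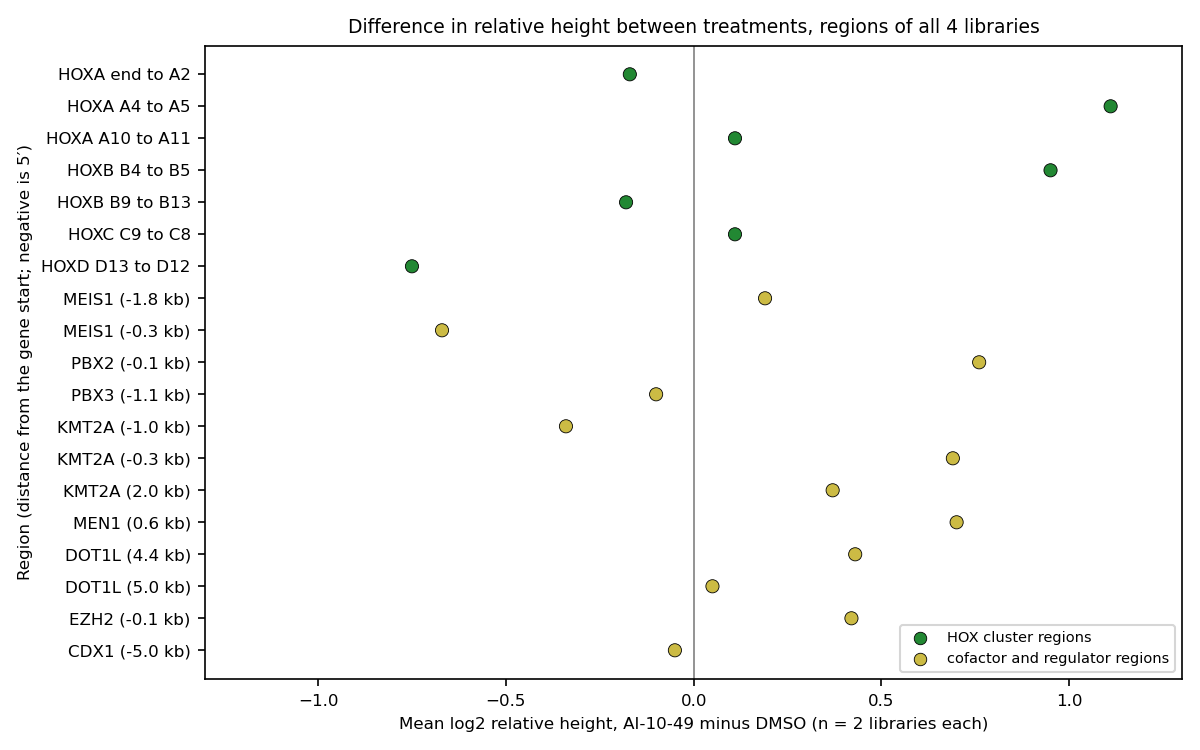
Mean log2 relative height after AI-10-49 minus that with DMSO (n = 2 libraries each) at the HOX regions of all 4 libraries (green) and at such regions near HOX cofactors and regulators (yellow). HOXA4 (1.11) and the HOXB4 to HOXB5 site (0.95) lie farthest to the right, beyond PBX2 (0.76) and MEN1 (0.70), and HOXD13 to HOXD12 (-0.75) and MEIS1 (-0.67) farthest to the left.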

How the data were processed

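The deposited files were 4 peak lists, 1 per library, on hg19. Per the submitters' processing notes, cutadapt 1.3, Bowtie2, Picard 1.96, MACS2 2.1.0 and deepTools were used, without roles. Their settings are not given in the sources used here. The deposited lists give, for each peak, the authors' fold enrichment (a ratio), p-value and q-value as −log10, and a score that was not used. Total reads per library are unknown, which leaves precision to be judged from summit reads.

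Chromosomes 1 to 22 and X were analysed, and rows with equal coordinates collapsed. Summit reads and background were recovered, by a Poisson model, from fold and −log10 p-value (tolerance 0.001), with whole numbers for at least 99.996% of peaks, which was tested on simulated data. Peaks overlapping by 1 bp were merged into regions. Folds served as description, without a test across regions. Groups came from sample titles and were compared with exact permutation tests. Python 3.11.15, scipy 1.17.1 and pandas 2.3.3 were used.

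Members, gene lists and comparisons were chosen with earlier results of these data known. Values in every library were to be printed for regions of all 4 libraries, of 1 group only and at gene starts, and other regions are given because the clusters hold few. Some genes of the lists are not reported here. Starts of the genes outside the HOX clusters were not compared with RefSeq.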

Additional observations from a re-analysis of the deposited data

How the results depend on the processing

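The difference in HOX peak number (AI-10-49 minus DMSO) was 0 in the deposited lists. It was 4.5 with lists of equal length, 5.0 with at least 5 reads, -5.0 with at least 60 times the background and -2.5 to 2.5 without each library. DMSO-only HOX regions (0) became 1 at a minimum −log10 q-value of 5 and 2 with 60 times the background, and 1 to 7 without each library. AI-10-49-only regions (1) became 4 with lists of equal length and 2 with at least 5 reads, and 2 to 6 without each library. For DMSO-only and AI-10-49-only regions the share over all regions at these settings is not given here, so the counts cannot be called high or low. Regions higher in relative height (2) became 1 at a minimum −log10 q-value of 5, 1 with lists of 24465 peaks, 1 with at least 5 reads and 1 with 50% reciprocal overlap, and 3 to 4 without each library. At the first of these settings 2 to 5 HOX regions were compared, and 20.4 to 24.8% of all such regions were higher. Without each library 8 to 11 HOX regions were compared, and 34.3 to 40.9% of all such regions were higher, so the rise was not particular to HOX. Regions lower (2) became 1 at a minimum −log10 q-value of 5, 1 with lists of equal length, 0 with lists of 24465 peaks, 1 with at least 5 reads, 1 with 60 times the background, 1 with 50% reciprocal overlap and 4 over the background, and 1 to 4 without each library. Of all such regions, 20.6 to 38.4% were lower without each library and 47.9% over the background. At the other settings named here this share was 17.1 to 20.2%, with 2 to 6 HOX regions compared. HOX starts with a region (7) became 3 at a minimum −log10 q-value of 5, 5 with lists of equal length and 2 with lists of 24465 peaks. They became 5 with at least 5 reads and 5 with 60 times the background, and 6 to 7 without each library. Stricter lists hold fewer peaks by construction, and leaving out a library relaxes the criterion for its group. For other changes the cause was not tested.

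At HOXA4 the log2 difference could not be computed at a minimum −log10 q-value of 5, with at least 5 reads, with lists of 24465 peaks or with 50% reciprocal overlap, where the region was not shared by all libraries. Elsewhere it was 0.70 to 1.42. Between HOXB4 and HOXB5 it was 0.55 to 1.20 over the settings run, with 1 sign. Between HOXD13 and HOXD12 it was -1.15 to -0.43, with no value at 60 times the background or with lists of 24465 peaks. The overlap rules for heights were chosen after seeing the data. With the replicate block, that is within pairs of libraries of equal number, the difference in HOX peaks was 0, from -4 in pair 1 and 4 in pair 2, and the pairing changed no sign at the named regions. Deviations of equally numbered libraries had a correlation of -0.0026 over regions, so the numbers are not taken as pairs.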
